A study of Homo sapiens with 6 samples.

Results

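FLT3, 5 other receptor genes and 3 genes for secreted signals were followed in MOLM-13 cells treated with DEG-35. MOLM-13 is an established human acute myeloid leukaemia line whose FLT3 gene carries an internal tandem duplication, and the labels give its genotype as WT. DEG-35 is described by the study as a degrader of both IKZF2, a zinc-finger transcription factor also called Helios, and CK1α, the kinase encoded by CSNK1A1. One group of 3 RNA-seq libraries came from cells given 50 nM DEG-35 for 24 h, and the other group of 3 came from cells given the solvent DMSO for the same time.

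The 9 genes are FLT3, CSF3R, EPOR, IL7R, IL21R, IL18R1, IL16, OSM and CCL5, and they were selected by symbol from the 6831 genes of the authors' deposited table. That table holds a gene only if its adjusted p in the comparison of DEG-35 with DMSO was below 0.05. The members were thus chosen on the same fold changes and p-values that are given here, which are a description and not a test of the group. The table has no value for single libraries and no expression level, so the spread between libraries, the depth and the order of the genes by abundance cannot be shown. Nor could the labelled cell type be checked against its markers. Its header does not name the numerator; all values are read as DEG-35 over DMSO, and every direction would turn round under the other order. Each error is a standard error (SE) worked out from the gene's fold change and p-value.

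Haematopoietic cells read growth factors through a few receptor families. FLT3 is a class III receptor tyrosine kinase that signals through RAS and MAPK, PI3K and, when mutated by tandem duplication, strongly through STAT5. Class I cytokine receptors have no kinase of their own and depend on bound JAK kinases, which phosphorylate STAT transcription factors, while IL-18 receptors signal through MYD88 towards NF-κB. SOCS proteins, CISH and phosphatases limit these signals.

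Most of the 9 genes were higher with DEG-35. The authors' deposited table has 7 of them as higher and 2, EPOR and IL18R1, as lower. Of all 15064 genes that the adjusted p-values imply had been tested, 45.3% are listed, 21.4% as higher and 24.0% as lower, and nothing is read from the members' count against these shares because the table chose them. A change of at least 1 on the log2 scale was seen for 5 of the members upward and 1 downward. Of all tested genes, 4.23% and 4.08% were listed with such a change, and the fold changes of unlisted genes are unknown. All 9 had an adjusted p below 0.01, as did 36.8% of tested genes, and 8 passed a Bonferroni adjustment over the 15064 tests, as did 20.9%. The authors' deposited table puts EPOR nearest the limit (adjusted p = 4.06e-05) and IL7R farthest from it (7.98e-46); no member lies just inside it.

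**Figure D1:**
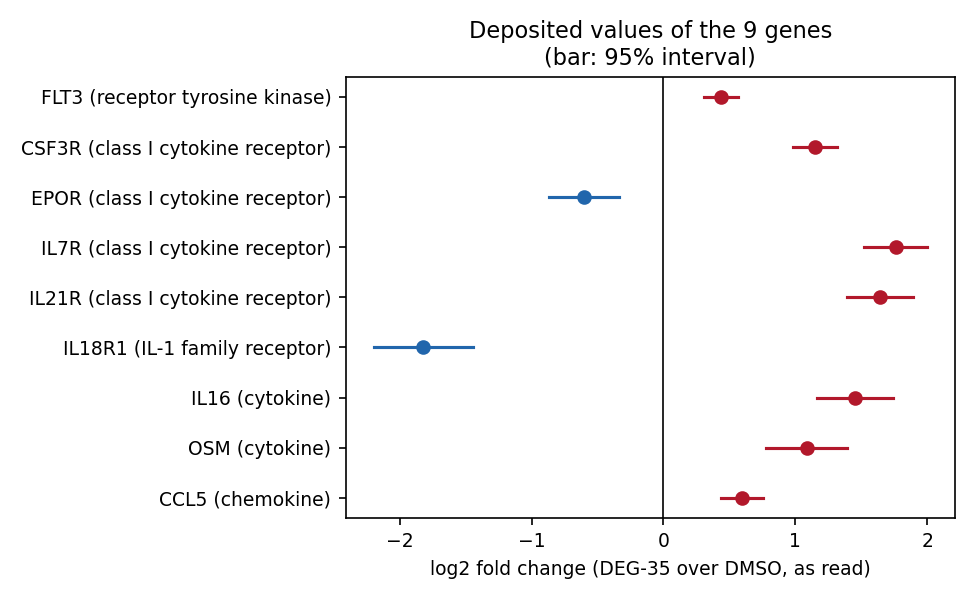
Log2 fold change of each of the 9 genes on the horizontal axis, read as DEG-35 over DMSO; points are the authors' deposited values and bars are 95% intervals from the implied SE. The 7 red points lie right of 0 and the 2 blue points, EPOR at -0.60 and IL18R1 at -1.82, lie left of it.

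FLT3 mRNA, the transcript of the driver kinase of this line, was modestly higher. Its log2 fold change was 0.44 ± 0.0656 (implied SE; adjusted p = 1.94e-10 in the authors' deposited table), which is 1.36-fold with a 95% interval from 1.24 to 1.48. FLT3 had the smallest point value and the smallest implied SE of the 9, and its interval overlaps those of CCL5 and, in size, EPOR. Of the 3218 genes higher in the authors' deposited table, 56.8% rose by more than FLT3. The values are per gene, so the mutated and the normal FLT3 transcripts are not told apart. In bulk RNA, here and for every gene below, a change in the number of cells of a kind and a change in RNA per cell cannot be told apart either.

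Other class III receptor kinases were mostly unlisted. CSF1R, the receptor of macrophage colony-stimulating factor, rose by 1.57 ± 0.147 in the authors' deposited table. KIT, PDGFRA and PDGFRB were not listed; here and below, an unlisted gene either missed the limit or was never tested. Thus 2 of the 5 genes of this family list were listed, both higher.

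Among class I cytokine receptors, IL7R had the largest rise. IL7R, the chain that binds interleukin-7 on lymphoid progenitors and T cells, was 3.39-fold higher, with a 95% interval from 2.87 to 4.0. Its log2 fold change was 1.76 ± 0.122 in the authors' deposited table, and 5.47% of the higher genes rose by more. IL21R, which binds interleukin-21 on lymphocytes, was 3.13-fold higher (2.63 to 3.72), at 1.65 ± 0.128 on the log2 scale (adjusted p = 2.59e-36 in the authors' deposited table). The intervals of IL7R and IL21R overlap, so their order is not resolved.

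CSF3R, the receptor of granulocyte colony-stimulating factor, was 2.21-fold higher (1.97 to 2.48), at 1.15 ± 0.0849 (adjusted p = 4.73e-40 in the authors' deposited table). Its upper limit lies below the lower limits of IL7R and IL21R. EPOR, the erythropoietin receptor of red cell precursors, went the other way. It was 1.52-fold lower, with a 95% interval from 1.26 to 1.83. The authors' deposited table gives EPOR a log2 fold change of -0.60 ± 0.136. Among the 10 erythroid and megakaryocytic marker genes, such as HBB, ALAS2 and KLF1, none was listed beside EPOR.

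IL21R has a listed antisense neighbour. IL21R-AS1 lies on the opposite strand within the GENCODE 29 annotation of the IL21R locus and stood at 1.47 ± 0.187 in the authors' deposited table (adjusted p = 4.17e-14). The sources used here do not say whether reads were counted by strand. Without strand, reads from bases that these 2 genes share cannot be told apart. Overlap was taken over whole genes, so how far their exons are shared was not examined. In all, 7 annotated genes overlap 6 of the 9 members, and IL21R-AS1 was the 1 listed among them. RGL3 at EPOR and IL1RL1 at IL18R1 overlap on the member's own strand, and how reads of such pairs were assigned is not stated.

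The promoters of 3 receptors are shown because they differ in direction or size of change: IL21R (higher), EPOR (lower) and FLT3 (slightly higher). Each line gives the 150 bases before the RefSeq start in GRCh38.p14, 5′ to 3′ on the gene's strand, at chr16:27427121-27427270 (+) for IL21R, chr19:11384315-11384464 (-) for EPOR and chr13:28100577-28100726 (-) for FLT3. The deposited values were made on hg19, so these positions serve the sequence alone. Capitals mark TGTGGT (the RUNX core) in IL21R and, on the other strand, AGATAA (the motif of GATA factors) in EPOR.
IL21R: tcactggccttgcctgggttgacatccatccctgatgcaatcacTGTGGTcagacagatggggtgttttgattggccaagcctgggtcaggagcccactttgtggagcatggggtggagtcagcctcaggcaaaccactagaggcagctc
EPOR: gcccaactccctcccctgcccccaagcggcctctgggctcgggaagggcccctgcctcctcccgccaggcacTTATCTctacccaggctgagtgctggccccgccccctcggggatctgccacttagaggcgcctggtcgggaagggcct
FLT3: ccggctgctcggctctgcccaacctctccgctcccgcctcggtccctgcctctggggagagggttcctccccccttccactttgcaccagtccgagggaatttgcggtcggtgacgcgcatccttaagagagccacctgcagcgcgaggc

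The GATA match in EPOR starts 78 bases and a GC box (GGGCGG, other strand) 50 bases before the start, and the RUNX match in IL21R starts 106 bases before it. RefSeq windows were found for 7 members (10 windows in all, several genes having 2 starts), and OSM and CCL5 had none. Over the 250 bases before each start and on both strands, 10 motifs were searched, and each share in brackets is of all 35116 such windows. The RUNX core was present in 4 of the 10 member windows (11.0%), those of IL7R, IL21R and both of IL16. The GATA motif was present in 3 (9.17%), in IL7R, EPOR and IL18R1, and the PU.1-type GAGGAAG in 2 (11.2%), in CSF3R and IL18R1. A GC box was found in 3 (42.6%), the ETS-type CCGGAA in 1 (14.5%), TATAAA in 2 (10.7%), the C/EBP-type TTNNGNAA in 2 (33.2%) and a p53 half-site in 1, that of IL7R (5.57%). Neither the STAT motif TTCNNNGAA (6.57%) nor TGGGAA, a sequence bound by the Ikaros family to which IKZF2 belongs (20.8%), occurred in a member window. The shorter GGGAA within it was not searched, and it is present in the printed FLT3 and EPOR bases. The FLT3 window held none of the 10 motifs. In IL7R the RUNX match starts 43 bases and the GATA match 36 bases before the start.

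IL18R1 had the largest point value of change, and in size its interval overlaps those of IL7R, IL21R and IL16. It encodes the ligand-binding chain of the interleukin-18 receptor and was 3.53-fold lower, with a 95% interval from 2.72 to 4.59. The log2 fold change was -1.82 ± 0.193 (adjusted p = 6.43e-20 in the authors' deposited table), the largest implied SE of the 9, and 6.45% of the 3613 lower genes fell by more. IL18RAP, the accessory chain of the same receptor, was not listed, nor was IL1RL1, and these are the nearest protein-coding neighbours of IL18R1. Of 15 receptors of the IL-1 and IL-17 families, IL17RA was the other listed gene, higher at 0.52 ± 0.0574 in the authors' deposited table.

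The 3 genes for secreted signals were all higher. IL16, whose product is cleaved to a chemoattractant for CD4-bearing cells, was 2.74-fold higher (2.24 to 3.34), at 1.45 ± 0.147 (adjusted p = 1.26e-21 in the authors' deposited table). OSM, oncostatin M, a cytokine of the IL-6 family and a known STAT5 target, was 2.13-fold higher (1.72 to 2.63), at 1.09 ± 0.157 (adjusted p = 3.85e-11 in the authors' deposited table). CCL5, the chemokine RANTES, was 1.51-fold higher (1.35 to 1.69), at 0.60 ± 0.0818 (adjusted p = 2.96e-12 in the authors' deposited table). The intervals of IL16 and OSM overlap, and the interval of CCL5 lies below both. Gene levels are unknown, so the absolute amount of each transcript cannot be compared.

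**Figure D2:**
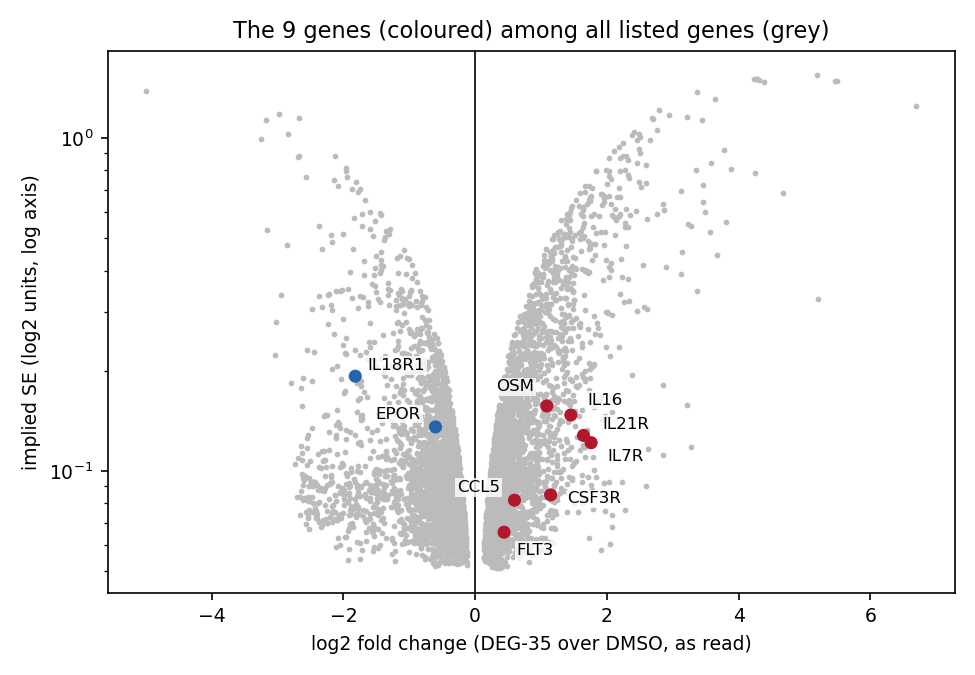
Log2 fold change (horizontal axis) against implied SE (vertical log axis) for all genes of the authors' deposited table with a p-value above 0 (grey) and the 9 members (red higher, blue lower). FLT3 lies low at 0.0656 and IL18R1 highest of the members at 0.193; the empty wedge around 0 is where genes did not reach the table.

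Precision differed among the members. The implied SE was above the table's median of 0.0891 for 6 of the 9 and below it for FLT3, CCL5 and CSF3R. By adjusted p, IL7R ranked 388 among the 6831 genes, CSF3R 449, IL21R 488, IL16 795 and IL18R1 865. CCL5 and EPOR changed by similar amounts in opposite directions, but CCL5 ranked 1471 and the less precise EPOR 3386.

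A few known partners of the members were listed as well. For the 9 members, 25 ligands, receptors, chains, kinases and adaptors were written down from textbook knowledge with the table's values already known. Of these, 8 were listed, all higher, and 17 were not. That is 32.0% listed, against 45.3% of all tested genes (21.4% higher). The 45.3% counts tested genes alone, while some unlisted partners may never have been tested. CCL5 was listed together with its receptor gene CCR1, at 0.96 ± 0.119 in the authors' deposited table, while CCR3 was not listed. IL16 was accompanied by CD4, its reported receptor, at 0.61 ± 0.0561 in the authors' deposited table.

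IL18, the ligand of IL18R1, moved against its receptor, at 0.90 ± 0.190 in the authors' deposited table, and the decoy IL18BP was not listed. No ligand of FLT3, CSF3R, EPOR, IL7R or IL21R was listed (FLT3LG, CSF3, EPO, IL7, TSLP and IL21). The shared chain IL2RG, which IL7R and IL21R both need, was not listed, and neither were the OSM receptor genes OSMR, LIFR and IL6ST. JAK2, the kinase bound by CSF3R and EPOR, rose by 0.64 ± 0.0943 in the authors' deposited table. JAK3, which serves IL2RG, rose there by 0.28 ± 0.124, with an adjusted p of 0.0477, just under the limit of 0.05.

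**Figure D3:**
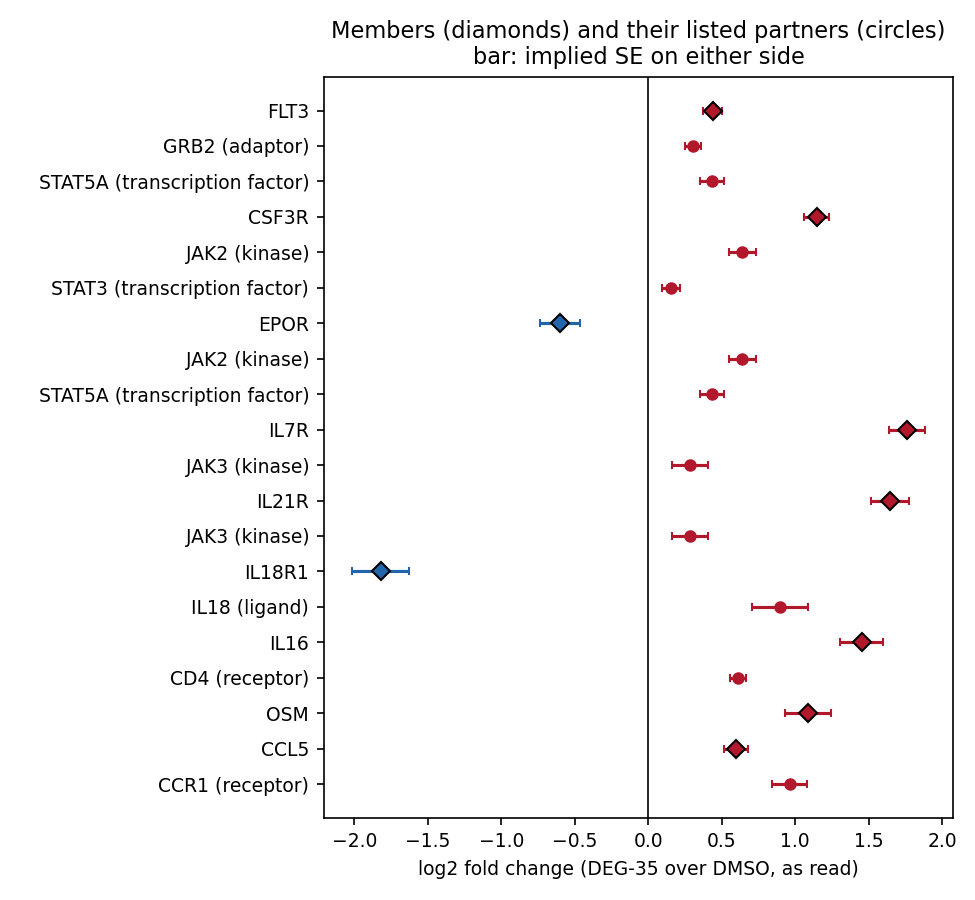
Log2 fold change (horizontal axis, DEG-35 over DMSO as read) of each member (diamond) and of its listed ligand, receptor, kinase, adaptor or transcription factor (circle), with the implied SE as bars. Every circle lies right of 0, also those under EPOR and IL18R1, whose diamonds lie left; partners that were not listed are not drawn.

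Receptors of other families were counted from 6 lists with 102 genes. These lists, like all below, were chosen with earlier results of these data known, and they have no test. The authors' deposited table lists 30 of the 102 (29.4%, against 45.3% of all tested genes). Of these, 23 rose and 7 fell, and their median log2 fold change was 0.78, while the median over the whole table was -0.19. Without the members, 24 of 96 were listed, 19 higher and 5 lower. How many of the unlisted receptor genes had been tested is not shown by the table.

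Class I chains made up 10 of the 30. Of the 33 on that list, 7 were higher and 3 lower. After IL7R, IL21R and CSF3R, the largest rise was that of IL12RB1, an interleukin-12 receptor chain, at 0.94 ± 0.129 in the authors' deposited table. Beside EPOR, the prolactin receptor gene PRLR fell by 0.57 ± 0.141 and the interleukin-2 receptor chain IL2RB by 0.67 ± 0.240 in the authors' deposited table. The receptor subunits CSF2RA, CSF2RB and IL3RA, which carry the GM-CSF and interleukin-3 signals of myeloid cells, were not listed.

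Class II chains had 4 of 11 genes listed, all higher. IL10RA stood at 0.76 ± 0.159, IFNGR1 at 0.31 ± 0.0729, IFNAR2 at 0.23 ± 0.0835 and IL10RB at 0.22 ± 0.0832 in the authors' deposited table. Chemokine receptors had 6 of 23 listed, again all higher, with a median of 1.20. CXCR3 stood at 2.04 ± 0.409, CXCR2, a neutrophil receptor, at 1.43 ± 0.251, the monocyte receptor CCR2 at 0.97 ± 0.109 and CX3CR1 at 0.79 ± 0.0916 in the authors' deposited table, beside CCR1. CXCR4 was not listed.

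The TNF receptor superfamily outside the death receptors was split, with 6 of 15 listed, 3 higher and 3 lower. TNFRSF9 at 2.50 ± 1.01, TNFRSF14 at 1.05 ± 0.334 and TNFRSF13C at 0.51 ± 0.211 were higher in the authors' deposited table. TNFRSF19 at -0.63 ± 0.132, TNFRSF1B at -0.51 ± 0.0953 and TNFRSF12A at -0.45 ± 0.199 were lower there. Apart from TNFRSF1B and TNFRSF19, their adjusted p-values in the authors' deposited table ran from 0.00473 (TNFRSF14) to 0.0498 (TNFRSF12A).

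Most listed ligand genes were higher. The 3 ligand lists hold 98 genes, and 17 of them (17.3%) were listed, against 45.3% of all tested genes. Of the 17, 15 rose and 2 fell, with a median of 0.90. Among all tested genes, 21.4% were listed as higher and 24.0% as lower, and some unlisted ligand genes may never have been tested. Without the members, 14 of 95 ligand genes were listed, 12 higher and 2 lower. LIF, the next gene to OSM and of the same cytokine family, had the largest rise, 3.23 ± 0.553 in the authors' deposited table. The inflammasome product gene IL18, the antagonist gene IL1RN at 0.70 ± 0.103, IL32 at 0.85 ± 0.271 and IL12A at 0.65 ± 0.163 completed the 7 of 40 listed interleukins and growth factors, all higher in the authors' deposited table.

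Chemokine genes were listed for 4 of 34, and CCL5 was the one with the smallest implied SE. CCL23 stood at 1.64 ± 0.50, CCL28 at -0.33 ± 0.128 and CXCL2 at -1.67 ± 0.653 in the authors' deposited table. Of 24 TNF, TGF-beta and interferon ligands 6 were listed, all higher and all of the TNF family. TNFSF4 stood at 1.39 ± 0.358, TNFSF9 at 1.01 ± 0.0872, CD70 at 0.97 ± 0.114, TNFSF13 (APRIL) at 0.92 ± 0.0763, TNFSF13B (BAFF) at 0.52 ± 0.0764 and TNFSF10 (TRAIL) at 0.50 ± 0.160 in the authors' deposited table.

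**Figure D4:**
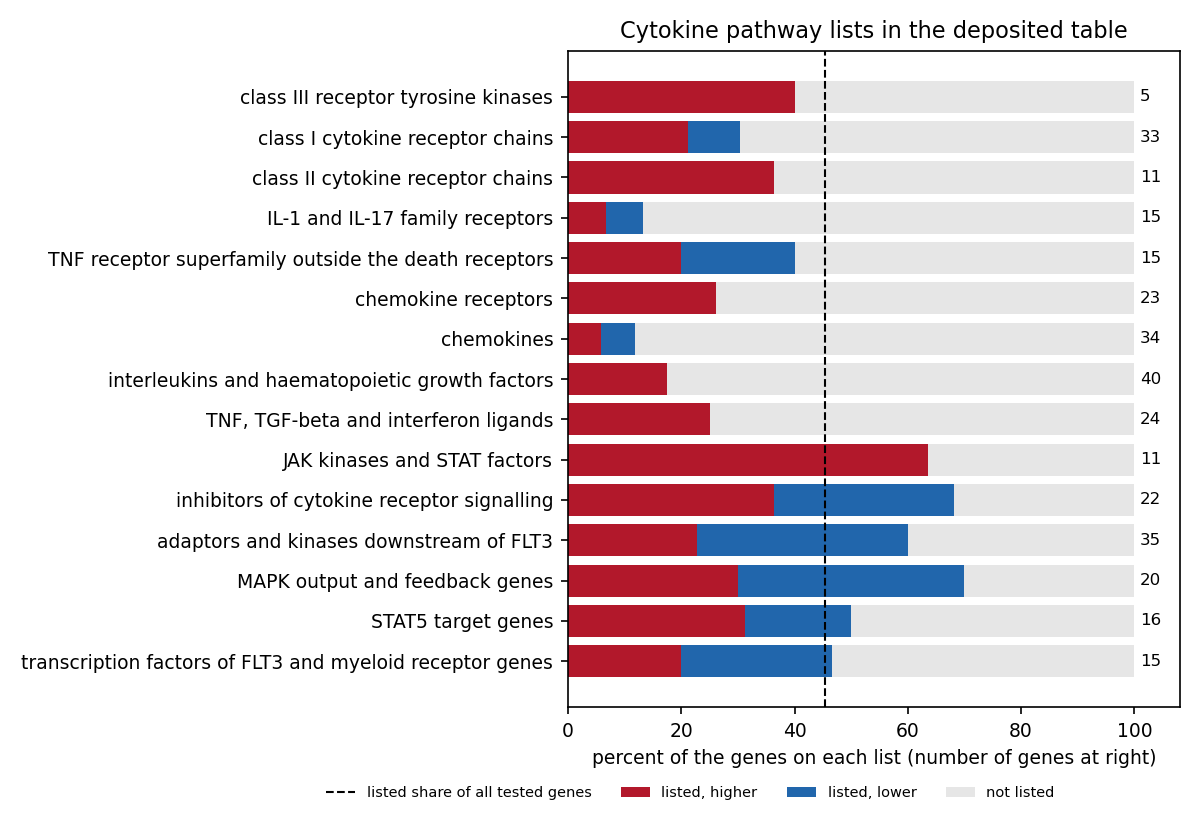
Share of the genes on each of 15 lists (horizontal axis, percent) that the authors' deposited table holds as higher (red) or lower (blue) or does not hold (grey), with the number of genes at the right and the 45.3% of all tested genes as a dashed line. Receptor and ligand lists lie left of the line, and the JAK and STAT, inhibitor, adaptor, MAPK and STAT5 target lists and the list of transcription factors end right of it. The line counts tested genes alone, while the lists may hold genes that were never tested.

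The listed JAK kinases and STAT factors all rose. They were 7 of the 11 on the list (63.6%, against 45.3% of all tested genes, 21.4% higher), with a median of 0.44. STAT2 at 0.76 ± 0.0696, JAK2, and STAT6 at 0.61 ± 0.0569 rose most in the authors' deposited table. STAT5A, which transmits mutant FLT3 and EPOR signals, rose by 0.44 ± 0.0800 in the authors' deposited table. STAT3, used by CSF3R, rose there by 0.15 ± 0.0607 (adjusted p = 0.0276). JAK1, TYK2, STAT4 and STAT5B were not listed.

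Inhibitors of cytokine signalling had no common direction. The list has 22 genes, of which 15 were listed (68.2%, against 45.3% of all tested genes). Of these, 8 rose and 7 fell, with a median of 0.24. The ubiquitin ligase gene CBLB at 0.63 ± 0.128, the phosphatase gene PTPN6 (SHP-1) at 0.62 ± 0.0701, SOCS1 at 0.52 ± 0.214 and CISH at 0.51 ± 0.0826 rose most in the authors' deposited table. Falling most were USP18, a brake on interferon receptors, at -0.82 ± 0.165, PIAS4 at -0.30 ± 0.113, SOCS4 at -0.29 ± 0.0813 and PIAS3 at -0.27 ± 0.0840, again from the authors' deposited table. SOCS2 and SOCS3 were not listed.

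Downstream of FLT3, adaptor and kinase genes moved both ways. The authors' deposited table lists 21 of 35 (60.0%, against 45.3% of all tested genes), with 8 rises and 13 falls. Their median was -0.19, equal to that of the whole table to 2 decimals. Among the largest rises in the authors' deposited table were those of the Src-family kinase gene FGR at 1.67 ± 0.188, BTK at 0.49 ± 0.0650 and the adaptor gene GAB3 at 0.45 ± 0.144. GAB1 at -0.82 ± 0.320, AKT1 at -0.65 ± 0.0895, MAPK3 (ERK1) at -0.63 ± 0.136 and HRAS at -0.44 ± 0.133 fell most there. GRB2, the adaptor that links FLT3 to RAS, rose by 0.30 ± 0.0551 in the authors' deposited table.

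MAPK output and feedback genes were likewise split. Of 20, 14 were listed (70.0%, against 45.3% of all tested genes), with 6 rises, 8 falls and a median of -0.22. SPRED3 at 0.91 ± 0.213, CCND1 at 0.89 ± 0.151, FOS at 0.78 ± 0.0939 and DUSP7 at 0.62 ± 0.0683 rose most in the authors' deposited table. ETV4 at -0.87 ± 0.102, SPRY4 at -0.53 ± 0.110, DUSP5 at -0.52 ± 0.147 and ETV5 at -0.49 ± 0.0832 fell most there. Genes of opposite direction thus stood within the same feedback families, for example DUSP7 and DUSP5, or SPRED3 against the lower SPRED1 and SPRED2.

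Among 16 genes known as STAT5 targets, 8 were listed (50.0%, against 45.3% of all tested genes). Of these, 5 rose and 3 fell, with a median of 0.51. Beside OSM, SOCS1 and CISH, the kinase gene PIM1 rose by 0.88 ± 0.0863 and the cyclin gene CCND2 by 0.67 ± 0.0646 in the authors' deposited table. Among the lower genes there were PIM3 at -0.40 ± 0.136 and ID1 at -0.84 ± 0.199.

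Transcription factors known to act on FLT3 or on myeloid receptor genes were listed in a share near that of all tested genes. They were 7 of 15 (46.7%), with 3 rises, 4 falls and a median of -0.21. IRF8 stood at 0.46 ± 0.0535, CEBPA, which acts on CSF3R, at 0.25 ± 0.0772, and RUNX1, whose motif core was searched in the promoters, at 0.13 ± 0.0553 in the authors' deposited table. HOXA9 and MEIS1, which act on FLT3, stood at -0.22 ± 0.0694 and -0.21 ± 0.0848, PAX5 at -0.70 ± 0.0727 and GFI1 at -0.31 ± 0.0614, by the authors' deposited table. SPI1, MYB, GATA1 and GATA2 were not listed.

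**Figure D5:**
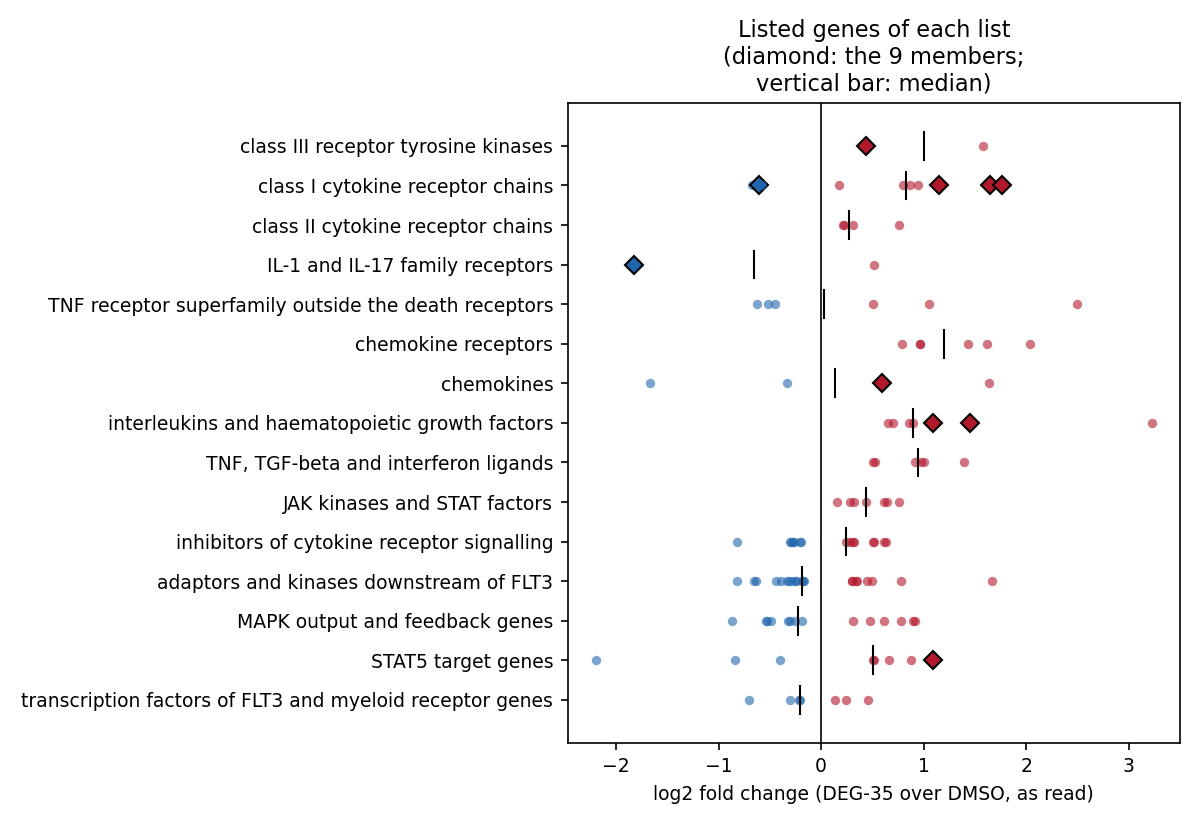
Log2 fold change (horizontal axis, DEG-35 over DMSO as read) of every listed gene on the 15 lists; diamonds are the 9 members (OSM stands on 2 lists), circles other genes and vertical bars the median of the listed genes. IL7R at 1.76 and IL21R at 1.65 lie farthest right among class I chains, and IL18R1 at -1.82 farthest left among receptors.

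Markers of monocytes and lymphocytes were counted beside the lymphoid and myeloid receptors. Of 10 monocyte markers 2 were listed, CSF1R and LYZ, the latter at 0.28 ± 0.0588 in the authors' deposited table. Of 11 lymphocyte markers 1 was listed, the granule gene NKG7 at 0.34 ± 0.114 in the authors' deposited table, and CD3E and MS4A1 were not. Whether other cell states contributed to the rise of IL7R, IL21R or CSF3R was not tested.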

How the data were processed

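Per the labels' protocols, a SMARTer kit turned RNA of 6 MOLM-13 samples (3 DEG-35, 3 DMSO, grouped by their titles) into mRNA libraries. The labels do not say whether libraries of a group are separate cultures, so p-values may measure technical spread. The submitters' processing notes name hg19, STAR, featureCounts and DESeq2 without versions or options.

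The authors deposited 1 table, whose columns per gene are the log2 fold change and its p-values, before and after adjustment; the sources used here do not give how values were normalized or shrunk, and depth per library is unknown. The adjusted p times rank over p, for 2789 genes with a p-value above 1e-04, gave 15064 tests. The implied SE is the size of the log2 fold change over the normal quantile that its two-sided p gives, which assumes a Wald test; 3 genes with a p of 0 have none. Intervals of 95% use it. Both calculations were run on simulated Wald tests with the same kind of adjustment. That checks the code and not whether the deposited values meet these assumptions.

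The members, 18 gene lists (15 of pathways, 3 of markers) and partners were chosen with earlier results of these data known. All 313 pathway symbols are RefSeq symbols; a synonym counted only if it is no gene's own symbol. Named were all members, every listed gene of a list with at most 8 and otherwise the 4 largest rises and falls, nearest protein-coding neighbours, and genes named as not listed or as examples, which were picked after their values were seen; some genes that this rule takes are not reported here. Motifs were picked after a first look at these promoters. GENCODE 29 served for overlap, strand and the check of promoter starts alone. Scripts ran in Python 3.11.15 with SciPy 1.17.1, pandas 2.3.3, Matplotlib 3.10.9 and NumPy 2.4.6. Alternatives were a minimum log2 change of 1 in size, an adjusted p of 0.01, Bonferroni adjustment, an implied SE of at most 0.2, fold changes shifted by 0.3 either way and exact symbols.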

Additional observations from a re-analysis of the deposited data

How the results depend on the processing

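All 9 members kept their direction and their listing at an adjusted p of 0.01 and an implied SE of at most 0.2. None turned round with all log2 fold changes shifted by 0.3 either way, although FLT3 then ran from 0.14 to 0.74. These outcomes were fixed by the members' values given above. FLT3 had the smallest change in size, 0.44, and IL18R1 the largest implied SE, 0.193. EPOR had the largest adjusted p, 4.06e-05 in the authors' deposited table. With a minimum change of 1 on the log2 scale, the higher members fell from 7 to 5 and the lower from 2 to 1. FLT3, CCL5 and EPOR missed that minimum. It left 637 higher and 614 lower genes in all. Genes on the 15 pathway lists went from 72 higher and 44 lower to 16 and 3. Bonferroni adjustment over 15064 tests left 1 lower member (EPOR no longer passed), 1347 higher and 1807 lower genes in all and 45 higher and 14 lower list genes. Both settings are stricter by construction. Shifted up by 0.3, 29 list genes stayed lower; a shift moved the values of genes in the table and could not bring in others. Exact symbols gave the same counts, which was fixed in advance because 0 list genes had been found through a synonym. Counting shared genes in their first list only, an alternative added after the data were seen, reduced the listed STAT5 targets from 8 to 5. No paired analysis was possible because the table has no values per library, and leaving out a replicate was not run for the same reason.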

Other observations

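The nearest protein-coding neighbours of the members were mostly unlisted, 4 of 18 being in the authors' deposited table. PAN3, next to FLT3 and part of an mRNA deadenylase complex, stood at 0.46 ± 0.0699, close to FLT3 itself, in the authors' deposited table. SPEF2, next to IL7R, stood at 1.03 ± 0.225, and OSM lies between 2 listed genes, LIF and CASTOR1 (listed under its older symbol GATSL3, at 1.19 ± 0.496), all 3 higher in the authors' deposited table. FLT1, a VEGF receptor kinase beyond PAN3, was chosen after its value was seen and fell by 1.55 ± 0.204 on the log2 scale, 2.92-fold, in the authors' deposited table. IL4R, next to IL21R, and IL18RAP, next to IL18R1, were not listed.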
